A study of Mus musculus with 8 samples.

Results

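The amino acid transporters described here are protein-coding mouse genes of the solute carrier families Slc1, Slc3, Slc6, Slc7, Slc36, Slc38 and Slc43. They were chosen by GENCODE GRCm38 symbol (the family prefix, the letter a and a number only), and 61 of the 55471 genes in the files matched. A gene was described when its level reached 1 TPM (a length-scaled transcript level within a library) in 2 or more of the 8 libraries, which 22 of the 61 did. RNA was measured in whole blastocysts at embryonic day 4.5, shortly before implantation, from embryos of superovulated mice grown in culture. The 3 groups were wild type (WT, n = 3 libraries), Isca2 -/- knockout (KO, n = 2) and Isca2 G77S/G77S, homozygous for a serine in place of glycine (G77S, n = 3). Isca2 encodes a mitochondrial protein of iron-sulfur cluster assembly. The labels describe crosses between Isca2+/- mice only, leave the origin of the G77S embryos unsaid, and give no number of embryos, litter or sex for a library. Whether replicates are separate litters is therefore unknown, and p-values reflect only library-to-library spread, part of which may be technical.

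Solute carriers move amino acids across membranes, and the early embryo takes amino acids up from oviduct and uterine fluid to build protein, control its volume and feed nutrient sensing. Slc3 proteins are heavy chains that carry their Slc7 light-chain partners to the cell surface, where the pair exchanges amino acids. Other Slc7 members carry cationic amino acids such as arginine, Slc38 and several Slc6 members use the sodium gradient to concentrate neutral ones, and Slc1 members carry glutamate or small neutral amino acids. In the blastocyst, uptake of arginine and leucine by the trophectoderm, the outer layer that attaches to the uterus, is known to accompany its activation for implantation.

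Library depth was 10323965 to 23842619 expected counts, at which 3 counts equalled 0.139 to 0.298 CPM (counts on a common depth scale set with TMM factors). Isca2 stood at 86.9 to 173 CPM in WT, 4.84 and 6.2 CPM in KO and 89.1 to 133 CPM in G77S. Fragments averaged 182.4 to 186.1 bases in G77S against 243.7 to 292.1 bases in WT and KO, so an effect of library preparation cannot be told apart from one of the G77S form. WT replicate 1 and G77S replicate 1 held almost no Y-linked RNA (0.335 and 0.07 CPM over 4 genes), against 215 to 418 CPM in the other 6 libraries. Trophectoderm markers (13 genes, none at 0 in all libraries) summed to 28537 to 32409 CPM in WT, 30530 and 33622 CPM in KO and 8547 to 12173 CPM in G77S. Their median log2 fold change versus WT was -0.79 in KO (0 called) and -1.13 in G77S (6 called lower). Epiblast markers (9 genes) summed to 222 to 343 CPM and primitive endoderm markers (11 genes) to 578 to 1496 CPM over all libraries. Low-level members of both lists differed between groups: epiblast markers had a median log2 fold change of 3.17 in KO and 2.59 in G77S versus WT (1 and 2 called higher), and primitive endoderm markers 5.37 and 5.09 (0 and 1 called higher). Of the 11 endoderm markers, 5 to 8 were at 0 in a WT library, 1 in each KO library and 2 to 5 in a G77S library. The part of these markers in the transporter differences was not tested. The 6 cumulus and granulosa markers were at 0 throughout, blood markers reached 2.24 CPM at most, and oocyte markers reached 24.6 CPM in WT replicate 3. In whole blastocysts, fewer cells of a type and less RNA per cell cannot be told apart.

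Few transporters made up most of the transporter RNA. In WT the highest mean levels were those of Slc3a2 (the heavy chain CD98hc) at 243 ± 35.3 TPM, Slc7a6 (the light chain y+LAT2, which exchanges cationic for neutral amino acids) at 222 ± 40.3 TPM and Slc38a4 (SNAT4, a sodium-coupled carrier of neutral amino acids) at 205 ± 10.3 TPM (SD, n = 3 each). Every WT library of Slc3a2 was above every WT library of Slc38a4, while the Slc7a6 libraries overlapped both. The next gene, Slc6a14 (ATB0,+, a carrier of neutral and cationic amino acids), stood lower, at 58.3 ± 44.7 TPM (SD, n = 3). After it came Slc43a3 at 41.8 ± 6.04 TPM, Slc1a1 at 37.6 ± 9.62 TPM, Slc6a8 at 36.1 ± 32.8 TPM and Slc7a3 at 33.3 ± 30 TPM, whose WT ranges also overlapped. Slc3a2, Slc7a6 and Slc38a4 held 65.0% to 76.7% of the summed TPM of the 22 genes and were the 3 highest in 7 of 8 libraries. In G77S replicate 1, Slc43a3 (111 TPM) stood above Slc38a4 (81.4 TPM). That sum was 1025, 891 and 925 TPM in WT, 784 and 429 TPM in KO, and 865, 856 and 738 TPM in G77S. KO replicate 2 was the lowest library.

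**Figure D1:**
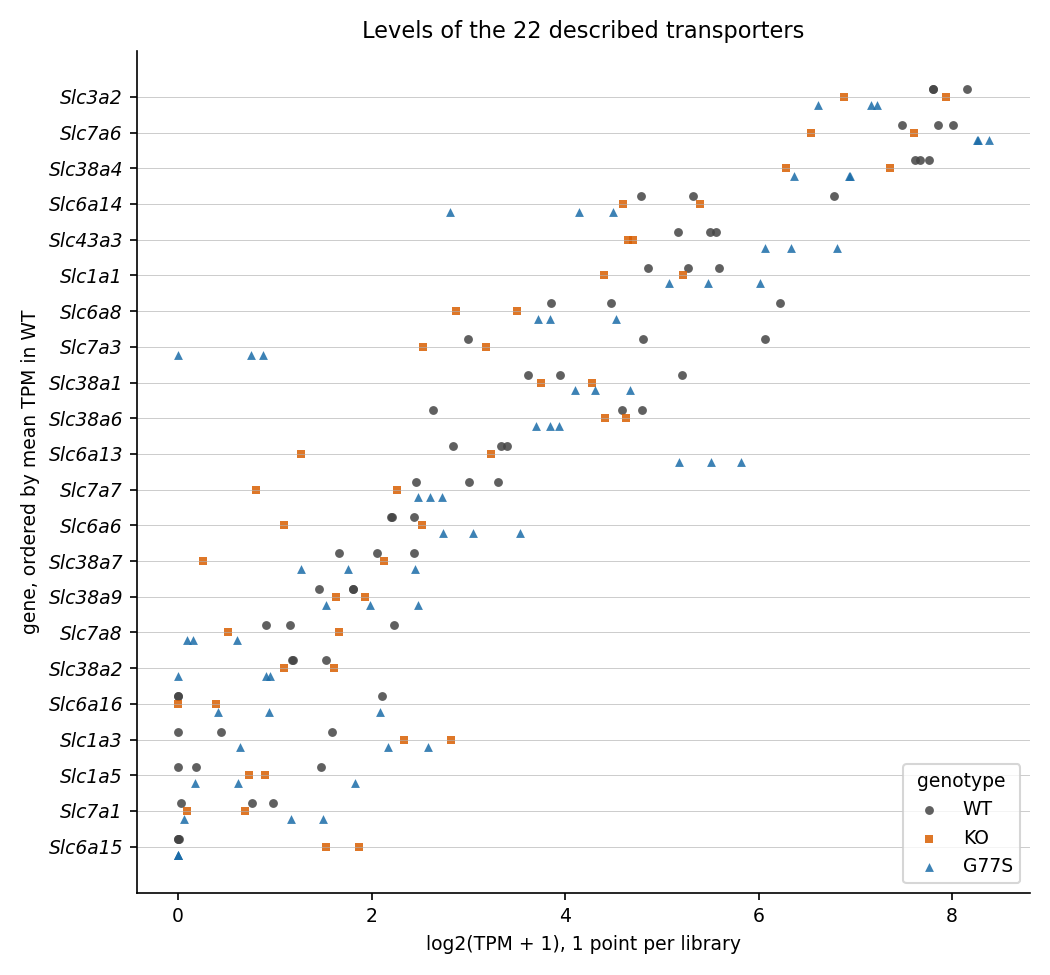
Level of each of the 22 transporters as log2(TPM + 1), 1 point per library, with WT, KO and G77S in separate rows of points and genes ordered by their WT mean. Slc3a2, Slc7a6 and Slc38a4 lie furthest to the right in 7 of 8 libraries, Slc43a3 passes Slc38a4 in G77S replicate 1, and Slc6a15 is above 0 mainly in the 2 KO libraries.

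Of the 22 genes, 12 reached 1 TPM in all 8 libraries and 4 (Slc1a5, Slc6a15, Slc6a16 and Slc7a1) in exactly 2. Slc6a15 passed only through the 2 KO libraries, so its differences follow in part from the selection. Slc7a1 passed only through 2 G77S libraries, with means of 2.28 CPM in G77S, 4.01 CPM in WT and 1.33 CPM in KO. Its lower level than in WT runs against the selection, while its higher level than in KO may follow in part from the selection. Slc7a3, Slc7a8 and Slc38a2 reached 1 TPM in WT and KO libraries only, so their lower G77S levels may also follow in part from it. Just inside the limit, Slc7a1 reached 1.24 and 1.82 TPM in 2 libraries. Just outside it, Slc7a5, the leucine exchanger LAT1, reached 1.55 TPM in 1 library. Of the 39 genes that did not pass, 18 were listed at 0 TPM in every library, 13 stayed under 1 TPM and 8 reached 1 TPM in 1 library. They included Slc7a11, the cystine carrier xCT (0.02 TPM at most), the glycine carrier Slc6a9 (0 TPM throughout) and all 4 measured members of the proton-coupled Slc36 family.

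Promoter sequences are shown for 3 genes with different records across genotypes: Slc38a4 (lower in G77S than in WT), Slc6a13 (higher in G77S than in KO) and Slc7a6 (abundant, with no call in the 3 comparisons). The series concerns TET enzymes, which act on methylated CpG, so CpG dinucleotides are in capitals. Each sequence is on the gene's strand, 5′ to 3′, from the upstream part of a RefSeq window on GRCm38.p6: Slc38a4 at chr15:97055957-97056206 (minus strand, 250 bases), Slc6a13 at chr6:121300038-121300226 (plus strand, 189 bases, cut where the GENCODE gene begins) and Slc7a6 at chr8:106168604-106168853 (plus strand, 250 bases).
Slc38a4: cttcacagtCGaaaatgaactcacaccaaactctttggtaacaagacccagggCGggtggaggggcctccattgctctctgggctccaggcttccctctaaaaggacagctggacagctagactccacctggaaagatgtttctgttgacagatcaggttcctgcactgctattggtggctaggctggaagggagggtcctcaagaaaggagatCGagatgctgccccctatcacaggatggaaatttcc
Slc6a13: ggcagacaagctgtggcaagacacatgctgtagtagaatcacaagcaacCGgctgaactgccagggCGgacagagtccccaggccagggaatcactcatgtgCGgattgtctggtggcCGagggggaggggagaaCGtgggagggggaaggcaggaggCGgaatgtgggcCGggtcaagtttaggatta
Slc7a6: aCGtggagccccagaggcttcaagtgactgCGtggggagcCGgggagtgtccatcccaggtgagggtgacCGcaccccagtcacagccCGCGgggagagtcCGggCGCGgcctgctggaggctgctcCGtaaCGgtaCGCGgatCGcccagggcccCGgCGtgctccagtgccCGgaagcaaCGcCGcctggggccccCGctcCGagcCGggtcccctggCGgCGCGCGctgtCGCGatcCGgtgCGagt
The Slc38a4 sequence held 3 CpG, that of Slc6a13 held 7 and that of Slc7a6 held 30. RefSeq windows matched 15 of the 22 genes (25 windows of 250 bases), with a median of 9 CpG against 6 over all 32851 windows. The motif TGATGNAA, the core of amino acid response elements, was searched on both strands. It occurred in 2 of the 25 windows (8%), against 3.45% of all windows. Both were windows of Slc7a7, so the motif was found in 1 of the 15 genes. These shares count windows, of which a gene can have several. Promoter methylation was not analysed here.

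The first comparison asked what loss of Isca2 changed. No transporter passed the test in KO versus WT. By edgeR's quasi-likelihood test with Benjamini-Hochberg adjustment over 13953 genes, 0 of 22 were called at an adjusted p under 0.05, where the background was 0.122% of all genes tested. An unadjusted p under 0.05 was found for 5 of 22 (Slc1a3, Slc6a8, Slc6a15, Slc7a3 and Slc7a7) against 13.0% of all genes. DESeq2 called 2 (Slc6a15 and Slc6a8), against 650 of 13953 genes. The KO libraries lay wholly above WT for 5 genes (background 13.1%) and wholly below for 4 (background 12.5%). The median log2 fold change of the 22 was -0.49, against -0.06 over all genes. Without KO replicate 2 that median was 0.01, and without KO replicate 1 it was -0.83. Slc6a15, selected through the KO libraries, is among the genes counted here.

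In G77S versus WT, 3 of 22 transporters were called, all lower (Slc3a2, Slc7a3 and Slc38a4), and none was called higher. The 3 edgeR calls were 13.6% of the 22. The background was 3.39% of all genes in either direction (182 higher and 291 lower, 1.30% and 2.09%). An unadjusted p under 0.05 was found for 9 of 22, against 20.0% of all genes. The 22 had also reached 1 TPM in 2 libraries, which the background genes need not have. Under a stricter filter (5 CPM in 2 libraries), 5 of 17 tested transporters and 745 of 8603 genes were called. With limma on log2(TPM + 1), 2 transporters were higher (Slc6a13 and Slc43a3) and 1 lower (Slc7a3), and 1466 of 13953 genes were called. With the gene-length trend of the fold changes removed, the split over all genes was 199 higher and 570 lower, and with limma on log2(TPM + 1) it was 1178 higher and 288 lower. After the length trend was removed, Slc3a2, Slc7a3 and Slc38a4 were still called, at log2 fold changes of -1.41, -6.79 and -1.43. The G77S libraries lay wholly below WT for 7 genes (background 11.8%) and wholly above for 2 (Slc6a13 and Slc43a3, background 17.2%). Slc7a3, Slc7a8 and Slc38a2, among those 7, reached 1 TPM in no G77S library. The median of the 22 was -0.70, against 0.03 over all genes. It was -0.35 without WT replicate 1 and -0.29 without G77S replicate 3. On the log2(TPM + 1) scale these medians were 0.05 and 0.23, so the sign of the median of the 22 depended on the scale. Trophectoderm marker RNA was also lower in the same G77S libraries (6 of 13 markers called lower, median -1.13). Its part, and that of the shorter fragments, in these differences was not tested.

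G77S versus KO tests whether the 2 genotypes departed differently from WT, since both comparisons share the same WT libraries. By edgeR's quasi-likelihood test 4 of 22 transporters were called, Slc6a13 higher and Slc7a3, Slc6a15 and Slc38a6 lower in G77S. Slc6a15 was selected through the KO libraries, so its difference follows from the selection, which leaves 3 of the other 21. The 4 edgeR calls were 18.2% of the 22. The background was 4.19% of all genes (246 higher and 339 lower, 1.76% and 2.43%). An unadjusted p under 0.05 was found for 9 of 22, against 20.7% of all genes. Under the stricter filter, 4 of 17 tested transporters and 836 of 8603 genes were called. With limma on log2(TPM + 1), 3 transporters were higher (Slc6a13, Slc7a6 and Slc43a3) and 1 lower (Slc6a15), and 1849 of 13953 genes were called. The split over all genes was 230 higher and 633 lower with the length trend removed, and 1543 higher and 306 lower with limma on log2(TPM + 1). The G77S libraries lay wholly below KO for 8 of the 22 genes (background 20.0%) and wholly above for 2 (background 24.9%). Slc6a15, Slc7a3, Slc7a8 and Slc38a2, among those 8, reached 1 TPM in no G77S library. The median was -0.26, against 0.10 over all genes. It was -0.06 without KO replicate 1, -0.55 without KO replicate 2, -0.59 without G77S replicate 2 and -0.01 without G77S replicate 3, and on log2(TPM + 1) it turned to 0.28, against 0.34 over all genes. Slc3a2 and Slc38a4, which fell in G77S versus WT, were not called in G77S versus KO by the main fit. Slc3a2 was called there with DESeq2 (adjusted p = 0.0267), with the length trend removed (0.0346) and with no filter (0.0131). Under the other alternatives it was not called, at up to 0.523. Slc38a4 was called under no alternative run, at 0.0677 or more.

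**Figure D2:**
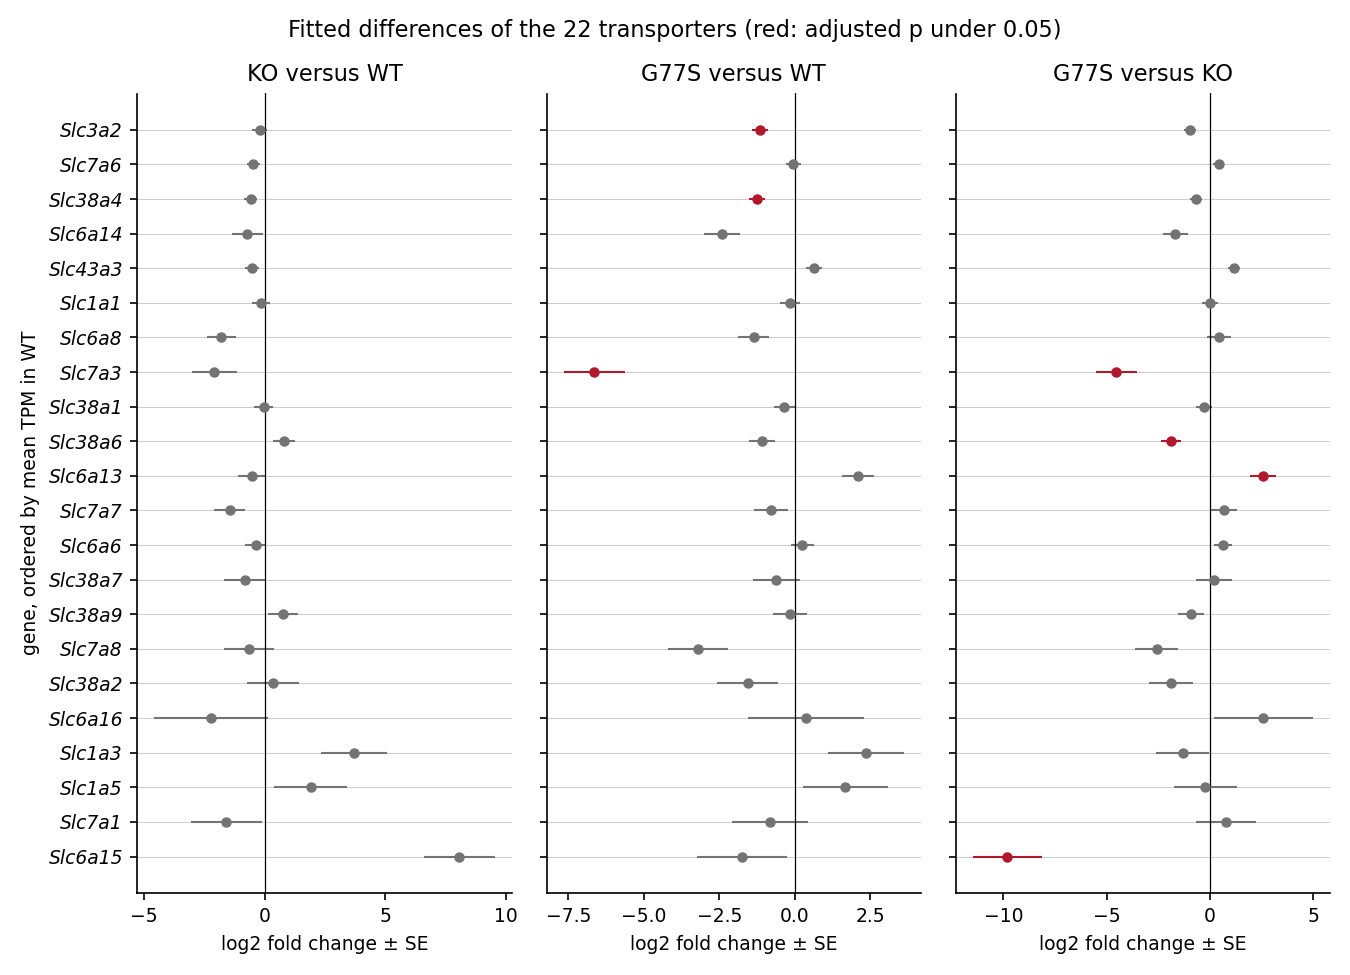
Fitted log2 fold change with its standard error for the 22 transporters in KO versus WT, G77S versus WT and G77S versus KO, genes ordered by WT level, red where the adjusted p was under 0.05. No gene is red in the first panel, Slc3a2, Slc38a4 and Slc7a3 are red in the second, and Slc6a13, Slc6a15, Slc7a3 and Slc38a6 in the third.

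Among the heavy and light chains, Slc3a2 measured 435, 400 and 411 CPM in WT, 471 and 247 CPM in KO and 226, 189 and 142 CPM in G77S. Every G77S library was below every other library, while the KO libraries fell on either side of WT. Slc3a2 (chromosome 19, 8706882 to 8723369) fell in G77S relative to WT (log2 fold change -1.16, SE 0.27, adjusted p = 0.0439). The values for KO versus WT were -0.21 (SE 0.30, adjusted p = 0.839), and for G77S versus KO -0.95 (SE 0.29, adjusted p = 0.0979). The call on Slc3a2 in G77S versus WT was near the threshold. It was lost without any 1 of the 6 libraries compared, at an adjusted p of 0.0608 without WT replicate 1 to 0.168 without G77S replicate 2, with log2 fold changes of -0.98 to -1.33. It was also lost with limma on log2(TPM + 1), at 0.0596, and over all 15 alternatives the adjusted p ran from 0.000291 to 0.168.

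Slc7a6 measured 249, 380 and 348 CPM in WT, 297 and 173 CPM in KO and 315, 290 and 337 CPM in G77S. All G77S libraries lay inside the WT range on this scale, and the log2 fold change in G77S versus WT was -0.05 (SE 0.25, adjusted p = 0.936). On the TPM scale the same gene was at 178, 257 and 231 in WT and 333, 307 and 304 in G77S, above every WT library. Its position relative to WT thus depended on the scale. The deposited transcript lengths of Slc7a6 were 1050 to 1287 bases in G77S and 1315 to 1502 bases in the other libraries. The part of these lengths in the dependence on scale was not tested. With limma on log2(TPM + 1), the difference from WT was 0.52 (adjusted p = 0.234) and the difference from KO was 1.23 (adjusted p = 0.0224). By edgeR on counts the difference from KO was 0.42 (SE 0.28, adjusted p = 0.434). Of the other light chains, Slc7a7 (y+LAT1) and Slc7a8 (LAT2, an exchanger of neutral amino acids) had WT means of 6.82 and 1.93 TPM. Slc7a8 was at 15.1, 6.55 and 4.73 CPM in WT and at 2.24, 0.136 and 0.434 CPM in G77S, with no overlap and an adjusted p of 0.103. Slc7a7 overlaps Oxa1l on the opposite strand (45.4 CPM), and no source used here says whether counting used strand.

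The ratio of Slc7a6 to Slc3a2, a light chain over its heavy chain, was examined after the values had been seen. On the TPM scale it was 0.628, 1.15 and 1.04 in WT, 0.796 and 0.785 in KO, and 2.24, 2.15 and 3.13 in G77S. All 3 G77S libraries were above all others. The log2 difference between G77S and WT was 1.44 (two-sided exact permutation p = 0.1, the smallest that 3 against 3 allows). On the CPM scale the difference was 1.15 (exact permutation p = 0.1), so G77S was also higher without the deposited lengths. Because the ratio was picked from values already seen, these p-values cannot test it and support no difference. On the CPM scale the ratio restates the Slc3a2 fall (log2 fold change -1.16 versus WT) beside a Slc7a6 level near WT (-0.05).

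**Figure D3:**
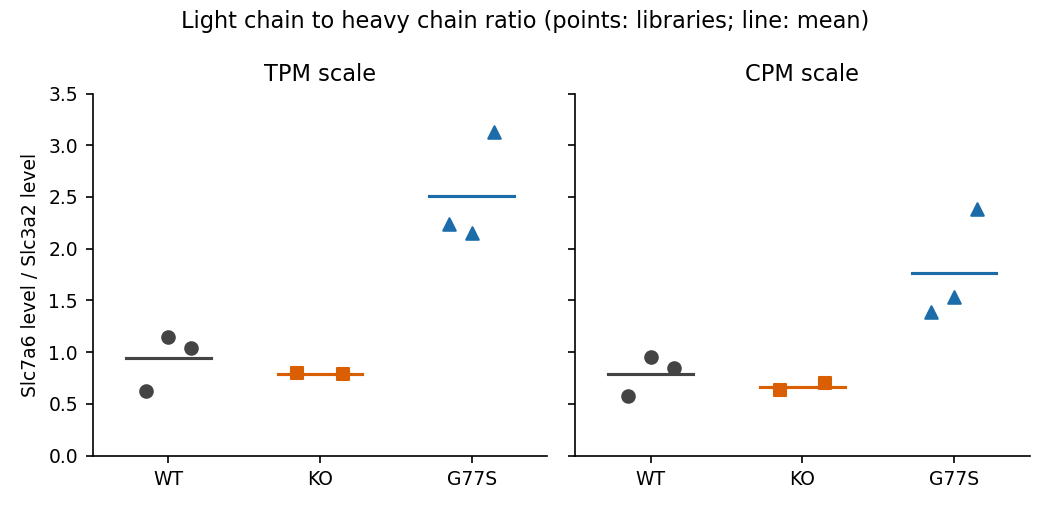
Ratio of the Slc7a6 level to the Slc3a2 level in each library (points) with the group mean (line), from TPM on the left and TMM-scaled CPM on the right. The G77S libraries lie at 2.15 to 3.13 on the TPM scale and at 1.39 to 2.38 on the CPM scale, above every WT and KO library.

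Of the cationic carriers, Slc7a3 alone showed a large fall, the largest fitted among the 22 genes in G77S versus WT. Slc7a3 (CAT3, an arginine and lysine carrier, chromosome X, 101079210 to 101086020, minus strand) measured 149, 19.5 and 75.4 CPM in WT, 23 and 15 CPM in KO, and 1.26, 0 and 1.21 CPM in G77S. Summed counts were 4498 in WT, 673 in KO and 32 in G77S. The G77S libraries were far below all others, and WT itself ranged widely. The gene reached 1 TPM in WT and KO libraries only, so its fall may follow in part from the selection. Slc7a3 fell against both other genotypes, with log2 fold changes of -6.64 in G77S versus WT (SE 1.02, adjusted p = 0.00868) and -4.54 in G77S versus KO (SE 0.99, adjusted p = 0.0304). The difference between KO and WT was -2.10 (SE 0.93, adjusted p = 0.378), and KO replicate 1 lay inside the WT range. The call on Slc7a3 in G77S versus WT held in 15 of 15 alternatives, with log2 fold changes of -7.14 to -4.08 and adjusted p up to 0.0409. In the 4 WT and G77S libraries with Y-linked RNA and the 2 KO libraries, it was -6.35 (adjusted p = 0.0408). The call in G77S versus KO was lost in 7 of 14 alternatives, among them leaving out any 1 of the 5 libraries (adjusted p 0.0612 without G77S replicate 2 to 0.104 without KO replicate 1). Slc7a1 (CAT1), the other cationic carrier described, ran from 0.0868 to 6.97 CPM over the libraries, with adjusted p of 0.721 for KO and 0.78 for G77S versus WT. The summed level of the cationic carriers was 33.8 ± 30.4 TPM in WT, 6.78 ± 1.94 TPM in KO and 1.54 ± 0.716 TPM in G77S (SD, n = 3, 2 and 3). Slc7a3 made up most of this sum in WT and KO, at means of 33.3 and 6.44 TPM. The sum therefore restates the values of that gene.

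Among the Slc38 carriers, Slc38a4 (chromosome 15, 96994820 to 97055956, minus strand) was the most abundant. It measured 510, 554 and 568 CPM in WT, 473 and 252 CPM in KO and 176, 254 and 259 CPM in G77S. The WT libraries were the 3 highest and close together, and the lower KO library lay within the G77S range. Slc38a4 fell in G77S versus WT (log2 fold change -1.24, SE 0.26, adjusted p = 0.0301). In KO versus WT it was -0.59 (SE 0.29, adjusted p = 0.421), and in G77S versus KO -0.66 (SE 0.28, adjusted p = 0.218). The call on Slc38a4 held without WT replicate 1 (adjusted p = 0.0349) and was lost without any other of the 6 libraries, at 0.0778 without G77S replicate 3 to 0.123 without G77S replicate 1. Over all 15 alternatives the adjusted p ran from 5.26e-05 to 0.123.

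Slc38a6, a less studied member of the family, measured 20.1, 21.1 and 7.88 CPM in WT, 31.7 and 25.5 CPM in KO and 7.77, 7 and 8.5 CPM in G77S. Both KO libraries were above every other library. The gene was lower in G77S than in KO by the test (log2 fold change -1.88, SE 0.47, adjusted p = 0.0498). This call was lost in 9 of 14 alternatives, including leaving out any 1 of the 5 libraries (adjusted p 0.124 without G77S replicate 3 to 0.174 without KO replicate 1). On log2(TPM + 1) the difference was -0.69 (adjusted p = 0.433), and over all 14 the adjusted p ran from 0.00276 to 0.433. Slc38a2 (SNAT2, the carrier that many cells induce when amino acids are scarce) was low throughout, at 6.3, 7.84 and 11.5 CPM in WT, 13.5 and 8.05 CPM in KO and 4.55, 4.08 and 0 CPM in G77S. All G77S libraries lay below the rest, with an adjusted p of 0.423 versus WT and 0.351 versus KO. Slc38a9, the lysosomal carrier that signals arginine to mTORC1, measured 8.2, 4.47 and 12.6 CPM in WT, 13.3 and 15.2 CPM in KO and 3.01, 10.7 and 9.02 CPM in G77S, with adjusted p of 0.673, 0.913 and 0.444 in KO versus WT, G77S versus WT and G77S versus KO. Slc38a1 and Slc38a7 had adjusted p of 0.647 or more in all 3 comparisons.

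Of the Slc6 carriers of amino acids, Slc6a14 (chromosome X) measured 95.7, 172 and 486 CPM in WT, 188 and 115 CPM in KO and 21.3, 51 and 70.3 CPM in G77S. Each G77S library was below every WT and KO library, and WT replicate 3 stood far above the other two. The log2 fold change in G77S versus WT was -2.40 (SE 0.59), with no call at an adjusted p of 0.0535. Slc6a14 was called in 7 of 15 alternatives (adjusted p from 3.25e-14 with no filter to 0.175 without G77S replicate 2), among them the 6 libraries with Y-linked RNA (-2.43, adjusted p = 0.0438) and the fit without WT replicate 1 (adjusted p = 0.0202). Without WT replicate 3 it was -1.49 (adjusted p = 0.144). In G77S versus KO the log2 fold change of Slc6a14 was -1.67 (SE 0.62), with no call at an adjusted p of 0.16. That difference was called with no filter (2.74e-06), with the replicate block (0.0199) and with DESeq2 (0.035), and under no other alternative run.

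Slc6a15 (B0AT2, a carrier of branched-chain amino acids and proline) was found in KO and almost nowhere else. It had 80 and 180 counts in KO (4.72 and 9.54 CPM), 1 count over the 3 WT libraries and 0 over the 3 G77S libraries. The KO to WT ratio was 360, with a 95% counting interval of 64.1 to 14276, and the test gave an adjusted p of 0.0889. In KO versus WT it was called with DESeq2, with limma on log2(TPM + 1) and with no filter, and the adjusted p over the alternatives ran from 0.00046 to 0.36. These values describe a gene that entered through its KO level and support no difference of the group. Slc6a15 passed the test in G77S versus KO (at least 98.1-fold lower against 3 counts over the group, adjusted p = 0.0182). The call was lost without KO replicate 2 (adjusted p = 0.121) and without any 1 G77S library (0.0521 to 0.0654). Slc6a16 was low and uneven, at 0 to 3.79 CPM, with adjusted p of 0.589 or more in all 3 comparisons.

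Of the Slc6 carriers of osmolytes, creatine and neurotransmitters, Slc6a13 (GAT2, a carrier of GABA, taurine and betaine, chromosome 6, 121300227 to 121337733) measured 16.8, 24.8 and 16.5 CPM in WT, 4.02 and 23.2 CPM in KO and 86.4, 95.7 and 64.6 CPM in G77S. All G77S libraries were above all others. Slc6a13 rose in G77S versus KO (log2 fold change 2.59, SE 0.63, adjusted p = 0.0467). In G77S versus WT the log2 fold change was 2.09 (SE 0.53, adjusted p = 0.0595), called in 6 of 15 alternatives (adjusted p from 3.4e-06 to 0.201). The call against KO was lost in 7 of 14 alternatives. It was kept without KO replicate 2, at 4.35 (adjusted p = 0.0172), and lost without KO replicate 1, at 1.82 (adjusted p = 0.0945), without any 1 G77S library (0.0868 to 0.135) and with the gene-length trend removed (0.0777).

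The creatine carrier Slc6a8 (chromosome X) measured 208, 73.5 and 47.1 CPM in WT, 23 and 40 CPM in KO and 63.1, 33.3 and 31.7 CPM in G77S. WT replicate 1 was the highest library by far, and both KO libraries were below WT. The KO versus WT log2 fold change was -1.80 (SE 0.61, adjusted p = 0.244), and -0.93 without WT replicate 1 (adjusted p = 0.394). The taurine carrier Slc6a6 measured 15.6, 18.5 and 18 CPM in WT, 17.4 and 9.22 CPM in KO and 26.4, 20.7 and 14.8 CPM in G77S, with overlapping groups and an adjusted p of 0.777 in G77S versus WT.

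Of the Slc1 carriers, Slc1a1 (EAAC1, a glutamate and aspartate carrier) measured 134, 122 and 218 CPM in WT, 178 and 105 CPM in KO and 204, 116 and 107 CPM in G77S. The groups overlapped, and its log2 fold changes were -0.16, -0.15 and 0.01 in the 3 comparisons, with adjusted p of 0.852 or more. The glutamate carrier Slc1a3 (GLAST) measured 1.23, 0.496 and 0 CPM in WT, 4.37 and 10.5 CPM in KO and 3.36, 5.03 and 0.521 CPM in G77S, and its KO versus WT log2 fold change was 3.69 (SE 1.36, adjusted p = 0.291). The glutamine and small neutral amino acid carrier Slc1a5 (ASCT2) stayed at 0 to 5.3 CPM in all libraries, with adjusted p of 0.563 or more.

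Slc43a3, a member of the Slc43 family known to carry purine nucleobases rather than amino acids, measured 110, 122 and 87.3 CPM in WT, 74.4 and 73.2 CPM in KO and 225, 148 and 123 CPM in G77S. The groups did not overlap, with KO lowest and G77S highest. The log2 fold changes were 0.64 in G77S versus WT (SE 0.26, adjusted p = 0.203), -0.52 in KO versus WT (SE 0.30, adjusted p = 0.492) and 1.16 in G77S versus KO (SE 0.30, adjusted p = 0.0597). The G77S versus KO difference was called in 5 of 14 alternatives (adjusted p from 0.00421 to 0.234).

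**Figure D4:**
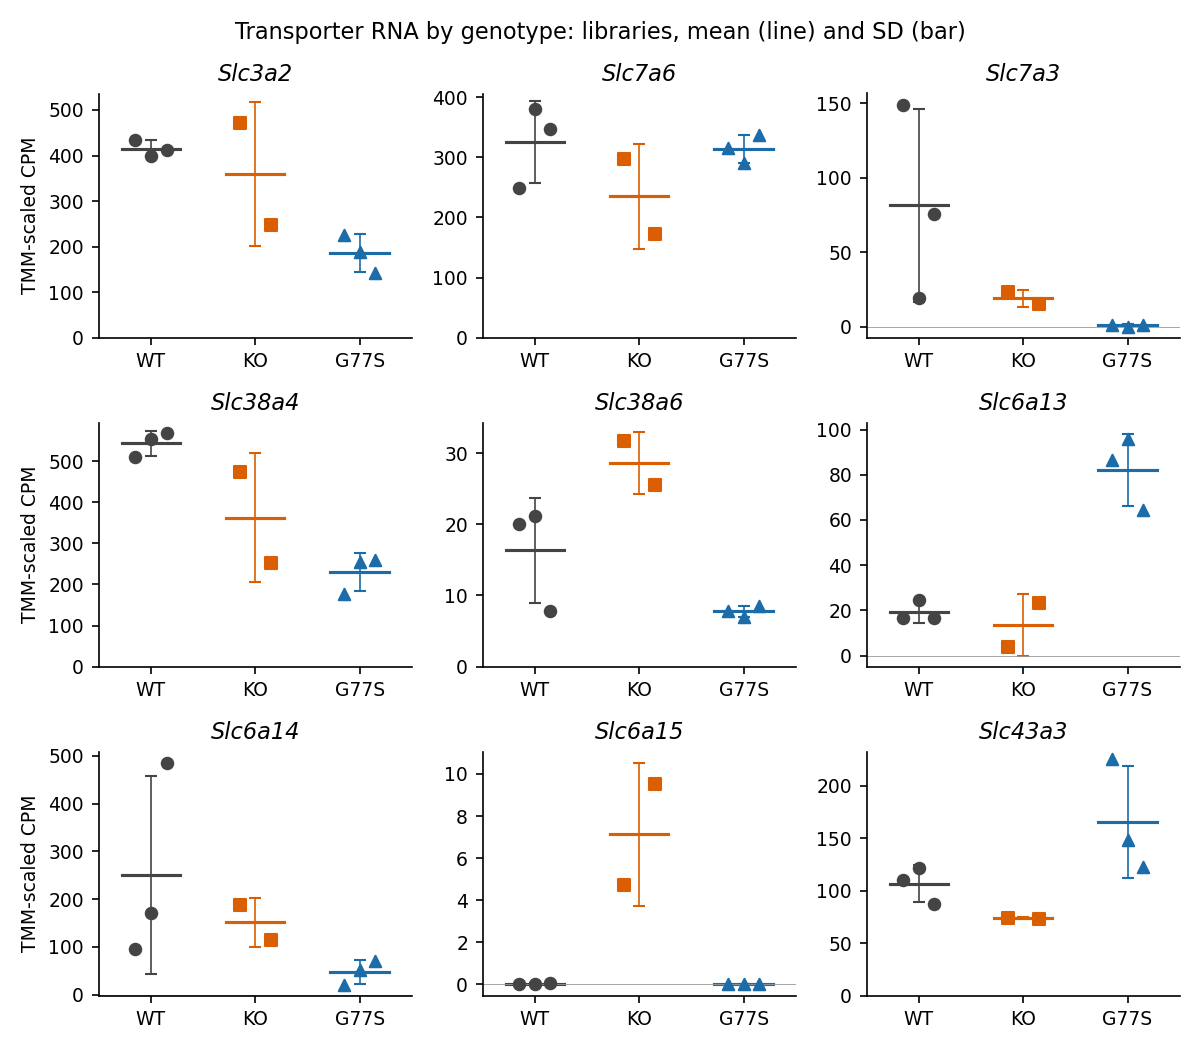
TMM-scaled CPM of 9 transporters in each library (points), with the group mean (line) and SD (bar), for WT, KO and G77S. Slc3a2, Slc7a3 and Slc6a14 are lowest in G77S, Slc6a13 is highest there, Slc6a15 is above 1 CPM in KO only, and Slc7a6 in G77S stays within the WT range.

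Genes that sense or respond to amino acid supply were read from the same test. Of 34 tested genes of amino acid sensing and mTORC1, the kinase complex that couples amino acids to growth, none was called in KO versus WT or G77S versus WT by edgeR. An unadjusted p under 0.05 was found for 4 and 5 of them, DESeq2 called 2 and 4, limma called 0 and 1, and the medians were 0.03 and -0.24. Over all 13953 genes, 13.0% and 20.0% had such a p, DESeq2 called 650 and 1538, and limma called 95 and 1466. The Ragulator genes Lamtor5 and Lamtor2, the most abundant of the list, had KO versus WT adjusted p of 0.505 and 0.314. In G77S versus KO 1 was lower, the Rag GTPase gene Rraga. It measured 26, 12.5 and 30.3 CPM in WT, 60.3 and 60.2 CPM in KO and 16.7, 16.5 and 9.28 CPM in G77S (log2 fold change -2.09, SE 0.43, adjusted p = 0.025). That is 1 of 34, where 4.19% of all genes were called, and 8 had an unadjusted p under 0.05, 5 were called by DESeq2 and 6 by limma. Over all genes, 20.7% had such a p, DESeq2 called 1700 and limma called 1849. For Rraga, both KO libraries stood above all others, and the call was lost without any 1 of the 5 libraries (adjusted p up to 0.113).

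Of 19 tested genes of the amino acid starvation response, none was called in KO versus WT (3 at an unadjusted p under 0.05, 2 by DESeq2), 3 were lower in G77S versus WT (2.09% of all genes were) and 4 were lower in G77S versus KO (2.43% of all genes were). In those 2 comparisons 9 and 6 had an unadjusted p under 0.05, against 20.0% and 20.7% of all genes. DESeq2 called 4 and 6 (1538 and 1700 of all 13953 genes), and limma called 4 and 6 (1466 and 1849 of all genes). For KO versus WT, 13.0% of all genes had an unadjusted p under 0.05, and DESeq2 called 650. Asns, which makes asparagine, measured 55.3, 266 and 374 CPM in WT, 306 and 171 CPM in KO and 25.8, 18 and 16.6 CPM in G77S. It fell in G77S versus WT (log2 fold change -3.53, SE 0.59, adjusted p = 0.0118). The stress factor gene Ddit3 measured 89.7, 187 and 230 CPM in WT, 235 and 167 CPM in KO and 27.5, 54.7 and 42 CPM in G77S (-2.03 versus WT, SE 0.37, adjusted p = 0.0173). The stress-induced regulator Nupr1 measured 27.9, 32.4 and 212 CPM in WT, 121 and 127 CPM in KO and 0.21, 0.884 and 0.781 CPM in G77S (-7.18 versus WT, SE 0.93, adjusted p = 0.00431). In each of these 3 genes every G77S library was below every other library. The Nupr1 call versus WT held in 15 of 15 alternatives, that of Asns in 13 (lost without G77S replicate 2 or 3, adjusted p up to 0.0709) and that of Ddit3 in 10 (lost without any 1 library other than WT replicate 1, up to 0.0788). Eif2ak3, which encodes the kinase PERK, was lower only against KO by the test (-3.01, SE 0.54, adjusted p = 0.0144), with 59.5 and 31 CPM in KO and 4.42 to 6.42 CPM in G77S. The Eif2ak3 call was lost without KO replicate 1 or any 1 G77S library (adjusted p up to 0.0928). Eif2s1, the most abundant gene of the list, had a KO versus WT adjusted p of 0.904. The list medians were 0.04, -0.57 and -0.39 in the 3 comparisons.

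Of 4 tested partners and regulators of transporters, 1 was called, higher in G77S versus WT (1.30% of all genes were). Slc16a10 (TAT1), which lets aromatic amino acids leave the cell, had 0 counts in all WT and KO libraries and 2.66, 3.4 and 1.74 CPM in G77S (adjusted p = 0.0489 versus WT and 0.0725 versus KO). It passed the low-count filter only through the G77S libraries, so its difference follows in part from that selection. The call versus WT was lost in 8 of 14 alternatives, among them leaving out any 1 of the 6 libraries (adjusted p up to 0.185) and the 6 libraries with Y-linked RNA (0.139). The kinase gene Sgk1, whose product raises the surface abundance of several carriers, measured 261, 317 and 290 CPM in WT, 163 and 99.2 CPM in KO and 89.7, 146 and 185 CPM in G77S. WT was above both mutant groups without overlap, and the adjusted p was 0.191 for KO and 0.0766 for G77S.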

How the data were processed

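Gene-level RNA-seq values were available for 8 libraries of whole blastocysts. The deposited tables hold expected counts (RSEM estimates in which multi-mapping reads are shared between genes), TPM scaled within each library, and transcript lengths, per the file headers. RSEM 1.3.1, STAR 2.6.1c, Trim Galore 0.4.5, DESeq2 1.42.1 and the GRCm38 build are named, without an order, in the submitters' processing notes. The annotation release and the strand setting were not given in those notes or the labels. GENCODE names matched 55230 of 55471 gene identifiers (99.6%).

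The deposited expected counts were rounded and tested with edgeR 4.0.16 (R 4.3.3), using TMM scaling, a group-wise low-count filter (13953 genes kept, including all 22 transporters), a quasi-likelihood model over the 8 libraries, and Benjamini-Hochberg adjustment over all genes at 0.05. The authors' TPM values served to compare levels between genes and, as log2(TPM + 1), for limma 3.58.1. Other lengths in the deposited tables served to read fragment lengths. A fold against 0 counts is a bound against 3 counts over the group. Without molecular identifiers, intervals and bounds cover counting error only. Named genes were those called, the most abundant of each role group and a set of known carriers, and the rest by range. On simulated counts for the 13953 genes, 22.2%, 27.5% and 23.8% of genes changed 4-fold were recovered in KO versus WT, G77S versus WT and G77S versus KO. For genes changed 8-fold these shares were 47%, 48% and 45.2%. Each share came from 2 simulations with changed genes drawn at random from all levels, and 2.2% to 7.84% of calls were false. The members and lists were chosen with earlier results of these data known.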

Additional observations from a re-analysis of the deposited data

How the results depend on the processing

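Of 926 single-transporter values under alternatives, 846 stayed on the same side of the threshold, 42 lost a call and 38 gained one. None that was called in either fit changed sign, and 57 that were called in neither did. With groups of 2 or 3 libraries and a common biological coefficient of variation of 0.655, most calls were near the threshold, and the call on Slc7a3 in G77S versus WT was the only transporter call kept in all alternatives run.

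Transporters called in KO versus WT numbered 0, and 4 with no filter, 2 with DESeq2, 1 with limma on log2(TPM + 1), and 0 under all other alternatives run. In G77S versus WT they numbered 3, and 7 with no filter, 5 with a stricter filter (5 CPM in 2 libraries), 6 with DESeq2, 3 with limma (2 of them higher), and 1 to 3 without 1 library. In G77S versus KO they numbered 4, and 8 with no filter, 7 with DESeq2, 4 with limma (3 of them higher), 1 in the 6 libraries with Y-linked RNA (chosen after seeing the data), and 0 to 1 without 1 library.

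Over all genes, KO versus WT calls numbered 17, and 547 with no filter, 62 with a stricter filter, 11 with only the 2 groups compared, 650 with DESeq2, 95 with limma, 32 in the libraries with Y-linked RNA, and 0 to 42 without 1 library. Without KO replicate 2 edgeR called 0, with 1366 genes at an unadjusted p under 0.05. G77S versus WT calls numbered 473, and 1336 with no filter, 745 with a stricter filter, 769 with the length trend removed, 1538 with DESeq2, 1466 with limma, 314 in the libraries with Y-linked RNA, and 86 to 638 without 1 library. G77S versus KO calls numbered 585, and 1411 with no filter, 1009 with only the 2 groups compared, 1700 with DESeq2, 1849 with limma, and 161 to 243 without 1 library. The log2(TPM + 1) scale moved the median of all genes to -0.12, 0.23 and 0.34 in the 3 comparisons. The cause of these shifts was not tested. A filter or a left-out library also changes the number of genes or libraries, and the part of that was not tested either.

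With the replicate number as a block, transporter calls numbered 0, 6 and 5 in KO versus WT, G77S versus WT and G77S versus KO, and calls over all genes 8, 411 and 600. The block ended the calls on Slc38a6 in G77S versus KO and on Slc16a10 in G77S versus WT (adjusted p of 0.129 and 0.127). Correlations of deviations between same-numbered libraries were 0.0712 at most. With 2 or 3 libraries in a group, these cannot show whether same-numbered libraries share a litter or a batch.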
